A study of Mus musculus with 34 samples.

Results

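Kupffer cells, the resident macrophages of the liver, carried 5337 SMAD4 binding intervals where neither SMAD4 library of bone marrow-derived macrophages (BMDM) had a peak, out of 18593 reproducible SMAD4 intervals in Kupffer cell nuclei. The 5337 members were selected on measured peaks: a peak of one Kupffer cell library had to overlap a peak of the other by at least 1 bp, the overlapping peaks were merged, and the merged interval had to overlap no peak in either BMDM list. The other 13256 Kupffer cell intervals were shared with BMDM, and 4817 of 16969 reproducible BMDM intervals overlapped no Kupffer cell peak. SMAD4 values below therefore describe the members and test nothing about them, whereas acetylation of histone H3 at lysine 27 (H3K27ac), which the rule does not use, was tested, although the set was proposed with earlier results of these data known.

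SMAD4 was profiled by chromatin immunoprecipitation sequencing in untreated Kupffer cell nuclei of Clec4f-cre mice, in which the Cre is under the Kupffer cell gene Clec4f, and in untreated BMDM of C57BL/6J mice cultured for 4 days. H3K27ac was profiled in untreated Kupffer cells (strain label C57BL/6J, while the series text names Clec4f-Cre/DTR mice for them), in repopulating liver macrophages (RLM) of Clec4f-cre/Rosa26iDTR mice 24 h after diphtheria toxin, in untreated Ly6C-high blood monocytes of C57BL/6J mice, and in C57BL/6J BMDM of 4 days that were kept for 24 h with the Notch ligand DLL4 or left untreated. LXR and RBPJ peak lists came from untreated Kupffer cells or their nuclei of Clec4f-cre mice, from untreated BMDM (RBPJ) and from BMDM of 7 days with the LXR agonist GW3965 for 18 h (LXR), both C57BL/6J. The headers of the Kupffer cell peak lists name C57B6J where the labels name Clec4f-cre. Each group had 2 libraries, and strain, isolation or culture and cell type cannot be told apart in the SMAD4 comparison. For H3K27ac, genotype, toxin, tissue and cell type cannot be told apart in RLM against monocytes. In Kupffer cells against RLM, toxin and cell type cannot, nor genotype if the strain label holds. In Kupffer cells against monocytes, tissue and cell type cannot, nor genotype if the series text holds. The labels do not state whether both libraries of a group had their own animals or culture. The p-values reflect variation among the libraries at hand, and this variation may be purely technical.

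SMAD4 is the shared partner of the receptor-activated Smads. Ligands of the TGF-beta and BMP families bind type II and type I receptor kinases, which phosphorylate SMAD2 and SMAD3 or SMAD1, SMAD5 and SMAD9. These pair with SMAD4 and bind short DNA elements, usually beside factors that set the cell type. H3K27ac marks active promoters and enhancers.

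Of the 5337 members, 1017 (19.1%) overlapped a RefSeq promoter window (build GRCm38.p6, 250 bases before to 50 after a start). The windows left out a chromosome, named with the data processing below, that holds 204 of the members. Those could not be scored but count among the 5337, so the share may be too low. The bound bases at 9 of these promoters are shown because they lie at the start sites of Kupffer cell identity genes or of a BMP receptor. They run 5′ to 3′ on the gene's strand, end at most 30 bases after the start, and capitals mark a match to one of the motifs searched. The motifs were the SMAD box CAGAC, the palindrome GTCTAGAC, the GC-rich SMAD element GGCGCC, the AP-1 site TGANTCA, the ETS core AGGAAGT, the RBPJ core TGGGAA, the E-box CACGTG, the RUNX core TGTGGT and an LXR-type direct repeat with a spacing of 4 bases, on both strands.
Clec4f (chr6:83656087-83656260, minus strand): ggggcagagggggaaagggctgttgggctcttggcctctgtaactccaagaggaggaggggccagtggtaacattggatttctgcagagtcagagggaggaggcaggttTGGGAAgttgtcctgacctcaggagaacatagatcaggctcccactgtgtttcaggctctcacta
Timd4 (chr11:46810603-46810790, plus strand): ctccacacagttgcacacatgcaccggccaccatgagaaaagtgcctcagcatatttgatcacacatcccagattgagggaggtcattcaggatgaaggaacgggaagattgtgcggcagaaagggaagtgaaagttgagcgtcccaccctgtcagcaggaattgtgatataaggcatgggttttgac
C6 (chr15:4726960-4727169, plus strand): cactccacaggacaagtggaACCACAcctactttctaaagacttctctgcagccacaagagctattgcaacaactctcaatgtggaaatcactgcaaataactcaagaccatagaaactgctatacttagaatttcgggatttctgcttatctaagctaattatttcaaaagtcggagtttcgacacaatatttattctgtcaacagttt
Cd38 (chr5:43868692-43868838, plus strand): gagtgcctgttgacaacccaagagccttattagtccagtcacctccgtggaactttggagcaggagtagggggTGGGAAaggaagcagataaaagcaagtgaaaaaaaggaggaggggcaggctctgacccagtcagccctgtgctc
Hpgd (chr8:56294429-56294581, plus strand): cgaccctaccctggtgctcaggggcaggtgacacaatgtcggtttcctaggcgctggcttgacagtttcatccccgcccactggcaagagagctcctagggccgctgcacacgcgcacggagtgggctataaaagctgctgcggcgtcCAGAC
Il18bp (chr7:102018206-102018415, minus strand): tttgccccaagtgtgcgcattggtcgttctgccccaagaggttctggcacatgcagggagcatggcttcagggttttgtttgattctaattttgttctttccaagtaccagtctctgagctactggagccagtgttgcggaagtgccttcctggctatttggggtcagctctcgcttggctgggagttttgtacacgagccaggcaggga
Pcolce2 (chr9:95637568-95637657, plus strand): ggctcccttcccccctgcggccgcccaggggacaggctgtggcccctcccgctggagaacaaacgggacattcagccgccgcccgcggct
Vsig4 (chrX:96293409-96293557, minus strand): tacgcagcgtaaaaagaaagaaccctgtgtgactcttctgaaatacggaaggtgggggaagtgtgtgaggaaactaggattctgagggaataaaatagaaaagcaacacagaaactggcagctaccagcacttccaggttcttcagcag
Bmpr1a (chr14:34502713-34502796, minus strand): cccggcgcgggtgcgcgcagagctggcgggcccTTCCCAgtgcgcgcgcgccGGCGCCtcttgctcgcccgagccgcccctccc

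Clec4f, Cd38 and Bmpr1a held 1 RBPJ core each, C6 held 1 RUNX core, Hpgd held 1 SMAD box and Bmpr1a also held 1 GC-rich SMAD element. The stretches of Timd4, Il18bp, Pcolce2 and Vsig4 held none of the motifs. Over whole windows, the RBPJ core stood in 20.85% under members, 20.83% under shared intervals and 25.56% of all windows, and the RUNX core in 10.22%, 11.55% and 16.76%, so neither was more frequent under members than over all windows. Over the 1223 whole windows under a member and no shared interval, the GC-rich element stood in 27.2%, against 27.3% of the 4345 windows under a shared interval and 11.9% of all 32817 windows. Median GC content moved in the same order, at 63.7%, 64.0% and 52.7%, and its part in the motif share was not tested. The SMAD box stood in 45.7% of member windows, 48.2% of shared windows and 49.6% of all windows, so it was no more frequent under members than elsewhere. The AP-1 site was in 3.03% of member windows, 4.58% of shared windows and 7.81% of all windows. The direct repeat was in none of the member windows and in 5 of all windows. Members away from these windows were not searched.

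Members carried fewer SMAD4 tags than shared intervals. Their deposited normalized tag count (tags per 10 M) had a median of 20.1 in the first and 34.9 in the second Kupffer cell library, against 28.0 and 44.9 at shared intervals. Among all Kupffer cell intervals, members made up 42.9% of the quartile with the lowest mean tag count (6.48 to 24.7) and 14.2% of the quartile with the highest (49.9 to 897). The median fold over input was 27.7 and 32.4 at members and 34.1 and 38.3 at shared intervals. Over members, log2 tag counts of the 2 libraries had a Pearson correlation of 0.47 and a Spearman correlation of 0.389. The Kupffer cell libraries held 18.9 and 18.0 M tags, with 37180 and 25369 peaks, and the BMDM libraries 11.1 and 13.9 M tags, with 37103 and 28593 peaks. Of the members, 1379 had a BMDM peak within 1000 bp that they did not overlap. Just inside the rule, intervals near Bcs1l and Pfkl abutted a BMDM peak without sharing a base, and their Kupffer cell tag counts were 59.7 and 73.7 for Bcs1l and 38.0 and 19.4 for Pfkl. Just outside the rule, intervals near Tlr9 (59.7 and 23.3) and Me2 (39.1 and 66.5) shared 1 base with a BMDM peak. For the overlap between the 2 Kupffer cell lists, intervals near Ifit3 (36.4 and 44.9) and Akap9 (5.81 and 18.8) passed with 1 shared base, and peaks near Poc1b (15.3 and 28.8) and Kcmf1 (8.97 and 22.2) abutted and failed. The number of members rested on each library: it was 9970 without the first and 16617 without the second Kupffer cell list, and 8733 without the first BMDM list.

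The strongest members on assembled chromosomes lay at genes of mixed kind. The first was in an intron of Skil at chr3:31095676-31095866, with 193.7 and 315.4 tags per 10 M; Skil encodes SnoN, a repressor of Smad complexes. The next was at the start site of Cltc, the clathrin heavy chain, at chr11:86757470-86757736, with 194.8 and 285.5. Clec4f, a lectin found on Kupffer cells, had 195.9 and 275.5 at chr6:83634073-83634251 and 280.9 and 139.1 at chr6:83636438-83636661, in H3K27ac regions annotated as intergenic, 21886 and 19521 bp from the Clec4f start. St3gal4 (a sialyltransferase), Sh2b3 (an adaptor that restrains cytokine signalling), Cyth1, Mir684-1, Pcolce2, Pkm (pyruvate kinase) and Gnb2 completed the 10 genes. A pair of intervals with mean tag counts of 467 and 348 exceeded them but lay near Pisd-ps3 on a contig not placed on a chromosome. Their fold over input was 16.6 and 30.1 for the stronger and 9.23 and 26.9 for the weaker interval. In all, 5 members lay on sequence without a place on a chromosome.

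By the deposited annotation of the H3K27ac regions that hold them, members lay farther from annotated starts than shared intervals did. The median distance of the region to a start was 8573 bp for 4989 members, 4591 bp for 13044 shared intervals and 12828 bp for 3612 BMDM-only intervals. Members were within 1 kb of a start in 33.4% of cases and farther than 3 kb in 60.4%, against 38.3% and 54.0% of shared intervals. Of the members with a region, 35.5% were annotated to an intron, 31.7% to intergenic sequence and 26.8% to a promoter. Members had 3757 nearest genes within 100 kb, of which 2884 had 1 member and 43 had 5 or more.

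H3K27ac was counted by the authors as raw tags in regions of 2000 bp, each built from the H3K27ac peaks of the groups in its table. In the table of Kupffer cells, RLM and monocytes, 4989 members (93.5%) overlapped a region, and 4447 (83.3%) overlapped one in the table of BMDM. The shares for shared intervals were 98.4% and 99.6%. A region of the first table alone held 676 members (12.7%), against 0.234% of shared intervals, and 214 members (4.01%) had no region in either. Members without a region have no H3K27ac value below. The 4989 members fell in 4968 distinct regions, of which 4948 passed the filter on low tag counts, and the 4447 fell in 4399, of which 4088 passed. Another interval with a BMDM peak lay in 641 of the 4968 regions (12.9%) and 636 of the 4399 (14.5%). Bulk tags cannot tell a higher share of cells with the mark apart from a higher level per cell.

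Median H3K27ac over member regions, in counts per 1 M scaled tags of the tested regions (CPM), was 11.1 and 11.8 in the 2 Kupffer cell libraries, 3.68 and 3.66 in RLM and 3.14 and 2.97 in monocytes. In BMDM it was 6.65 and 6.56 with DLL4 and 5.54 and 5.75 without. Both Kupffer cell medians were thus above all RLM and monocyte medians. Over shared regions the medians were 15.6 and 17.5 in Kupffer cells, 9.20 and 9.04 in RLM, 10.0 and 10.1 in monocytes, 15.6 and 15.7 in DLL4-treated BMDM and 14.3 and 14.5 in untreated BMDM. Over all tested regions they were 4.53 and 4.40 in Kupffer cells, 3.02 and 2.95 in RLM and 2.98 and 2.81 in monocytes. Member regions under 1 CPM in both libraries made up 2.18% in Kupffer cells, 2.69% in RLM and 10.9% in monocytes.

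**Figure D1:**
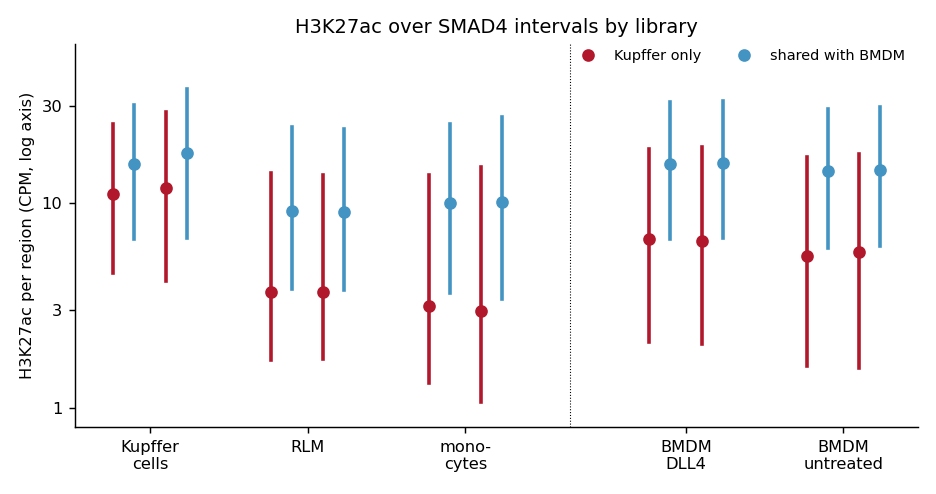
Median (point) and interquartile range (line) of H3K27ac in CPM, on a log axis, for each library over regions of members (Kupffer only) and of intervals shared with BMDM. Kupffer cells, RLM and monocytes come from one table and BMDM from another, scaled separately and divided by the dotted line. Member medians were 11.1 and 11.8 CPM in Kupffer cells and between 2.97 and 3.68 CPM in RLM and monocytes.

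Against monocytes, the circulating precursors of macrophages that refill an emptied niche, Kupffer cells had more H3K27ac at many of the member regions. By edgeR's quasi-likelihood test with Benjamini-Hochberg adjustment over all 80982 tested regions, a region was called at an adjusted p under 0.05 and a change of at least 2-fold. Of the member regions, 2306 (46.6%) were higher in Kupffer cells, where 24.9% of all tested regions were, and 373 (7.54%) were lower, where 17.7% of all were. The median log2 difference was 0.93 over members and -0.06 over all regions. At shared intervals 32.5% were higher and 10.9% lower, and at BMDM-only intervals 17.2% were higher and 30.9% lower. Without the regions that also held a BMDM-bound interval, 48.2% of member regions were higher. Of the 4968 member regions, 1346 (27.1%) came from the Kupffer cell H3K27ac peak list alone, against 17.1% of all regions and 3.21% of shared ones. A peak in Kupffer cells alone put those regions in the counts, so their calls against monocytes and RLM are partly set in advance. Shares without those regions were not computed.

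Position separated the members further. Of 2987 member regions more than 3 kb from a start, 1815 (60.8%) were higher in Kupffer cells, against 28.3% of all such regions and 44.2% of the shared ones. Of 1652 member regions within 1 kb, 319 (19.3%) were higher, against 13.6% of all such regions and 13.5% of the shared ones.

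Against RLM the picture was close to that against monocytes. Of the member regions, 2143 (43.3%) were higher in Kupffer cells, where 22.3% of all tested regions were, and 199 (4.02%) were lower, where 13.9% of all were. At shared intervals 32.4% were higher and 4.45% lower, so the share lower was close to that of members. Away from starts 58.0% were higher, against 26.4% of all such regions and 48.0% of the shared ones. Near starts 15.1% were higher, against 9.54% of all such regions and 8.87% of the shared ones. The median log2 difference was 0.82 over members and -0.04 over all. Leaving out the second Kupffer cell library gave 127 lower regions. Kupffer cells stand in this comparison and the one before, so the 2 are not independent.

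At 24 h after toxin, RLM differed from monocytes at fewer members. Of the member regions, 656 (13.3%) were higher in RLM, where 8.57% of all tested regions were, and 313 (6.33%) were lower, where 9.14% of all were. Regions of shared intervals were higher in 11.6% and lower in 12.1% of cases. The median log2 difference was 0.19 over members and 0.07 over all. RLM and monocytes each stand in another of the comparisons as well.

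DLL4, a Notch ligand carried by liver endothelial cells, changed H3K27ac of BMDM at a small share of members. Of 4088 tested member regions, 373 (9.12%) were higher with DLL4, where 4.89% of all 82089 tested regions were, and 47 (1.15%) were lower, where 2.64% of all were. Regions of shared intervals were higher in 6.34% and lower in 0.999% of cases. Leaving out the second untreated BMDM library gave 26 lower regions. Away from starts 13.5% were higher, against 6.13% of all such regions and 10.1% of the shared ones. Near starts the share was 2.76%, against 1.59% of all such regions and 1.04% of the shared ones. Regions from the DLL4 peak list alone made up 9.52% of member regions and 14.0% of all regions, and their calls are likewise partly set in advance.

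**Figure D2:**
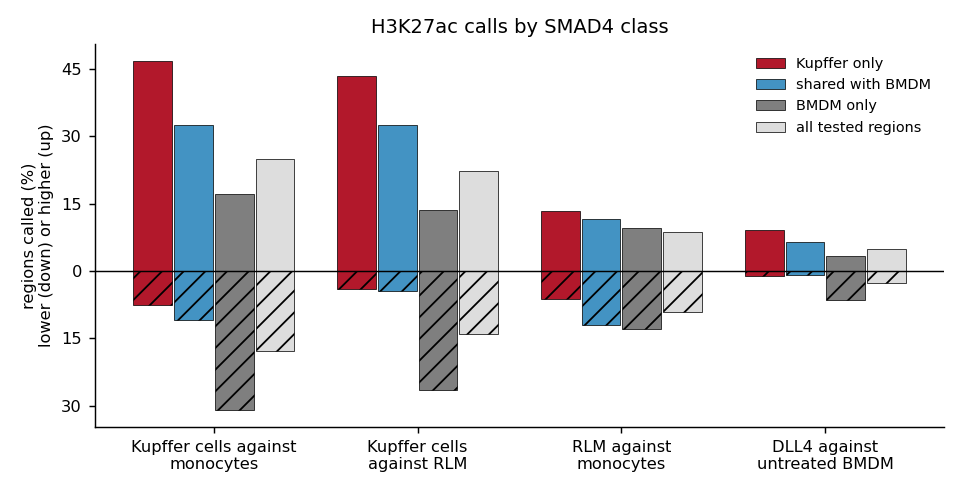
Percentage of tested H3K27ac regions called higher (up, plain bars) and lower (down, hatched bars) in each comparison for regions of members (Kupffer only), shared and BMDM-only intervals and for all tested regions. In Kupffer cells against monocytes, 46.6% of member regions were higher and 7.54% were lower, against 24.9% and 17.7% of all regions.

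Members with more SMAD4 tags were more often higher in H3K27ac. Over the quartiles of mean tag count, lowest first, the share higher in Kupffer cells than in monocytes was 35.6%, 42.5%, 49.3% and 58.6%. For Kupffer cells against RLM it was 30.6%, 40.6%, 46.6% and 55.0%, and for DLL4 against untreated BMDM 7.66%, 7.90%, 9.31% and 11.7%. Quartile bounds were 6.48, 21.6, 28.1, 37.9 and 467 tags per 10 M. Each is a description over intervals of the same 2 SMAD4 libraries.

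**Figure D3:**
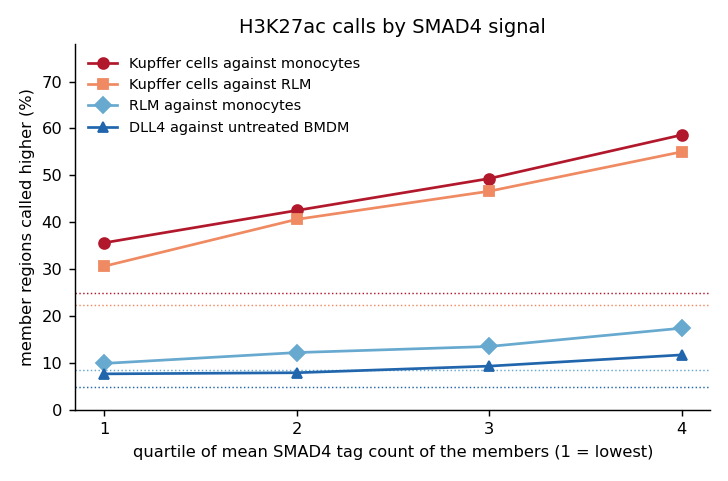
Percentage of member regions called higher in H3K27ac by quartile of the member's mean SMAD4 tag count, 1 line per comparison, with the share over all tested regions dotted. In Kupffer cells against monocytes the share was 35.6% in the lowest and 58.6% in the highest quartile.

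Genes that mark Kupffer cells carried many members. Of 25 listed identity genes, 14 had 27 shared intervals. At least 1 of 52 members lay at 18 of the 25, led by Cd38 with 8, Lepr with 6 and Paqr9 with 5. All 48 that were tested were higher in Kupffer cells than in monocytes, 45 of 48 were higher than in RLM, and 17 were higher in RLM than in monocytes, with none lower in any of the 3. Over all tested regions the shares higher were 24.9%, 22.3% and 8.57%, and over all member regions 46.6%, 43.3% and 13.3%. The median log2 differences over these 48 were 4.63, 3.29 and 1.06. The list was chosen with earlier results of these libraries known, so its direction is not independent evidence. In BMDM, 6 of 14 tested identity members were higher with DLL4 and none was lower, where 4.89% of all tested regions and 9.12% of member regions were higher.

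Clec4f, whose interval at chr6:83634073-83634251 was named above, had 28.0 and 34.2 CPM in Kupffer cells, 0.263 and 0.813 CPM in RLM and 0.992 and 0.165 CPM in monocytes. The groups did not overlap between Kupffer cells and either other cell. Its log2 difference was 5.73 ± 0.41 (SE) against monocytes (edgeR, adjusted p = 9.19e-20) and 5.75 ± 0.43 against RLM (edgeR, adjusted p = 5.24e-18). All 4 Clec4f members, within 24.3 kb, were higher against both, at log2 differences of 5.48 to 6.21 against monocytes.

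Timd4, which encodes the phosphatidylserine receptor TIM-4, had its printed start-site interval in a region with 45.8 and 55.8 CPM in Kupffer cells, 1.18 and 0.711 CPM in RLM and 1.32 and 0.165 CPM in monocytes. Both Kupffer cell libraries were far above the other 4. The log2 difference was 6.08 ± 0.38 against monocytes and 5.77 ± 0.38 against RLM (SE, edgeR, adjusted p = 5.96e-22 and 9.47e-20). Cd5l, a secreted scavenger-receptor protein, had 33.0 and 46.4 CPM in Kupffer cells, 1.45 and 1.32 CPM in RLM and 1.57 and 1.07 CPM in monocytes at its tested member.

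Cd38, an NAD-consuming ectoenzyme, showed another order at its start. The region of the printed promoter held 62.8 and 76.9 CPM in Kupffer cells, 36.1 and 36.8 CPM in RLM and 0.992 and 1.57 CPM in monocytes. RLM thus stood far above monocytes, at a log2 difference of 4.82 ± 0.30 (SE, edgeR, adjusted p = 1.99e-22), and Kupffer cells exceeded RLM by 0.94 ± 0.21, under the 2-fold minimum. The other 7 Cd38 members were called higher in Kupffer cells than in RLM.

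Lepr, the leptin receptor, had 53.7 and 68.9 CPM in Kupffer cells, 0.92 and 2.03 CPM in RLM and 0.331 and 0.495 CPM in monocytes at chr4:101742113-101742300. Its log2 difference of 7.18 ± 0.38 against monocytes (SE, edgeR, adjusted p = 4.95e-27) was the largest among named identity members. Id3, an inhibitor of DNA binding and a known BMP target, had 18.4 and 21.5 CPM in Kupffer cells, 1.71 and 2.64 CPM in RLM and 4.63 and 3.05 CPM in monocytes in a region -18068 bp from its start. Nr1h3, which encodes LXR-alpha, had 41.5 and 55.5 CPM in Kupffer cells, 21.8 and 21.3 CPM in RLM and 5.54 and 6.19 CPM in monocytes, with RLM between the other cells.

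**Figure D4:**
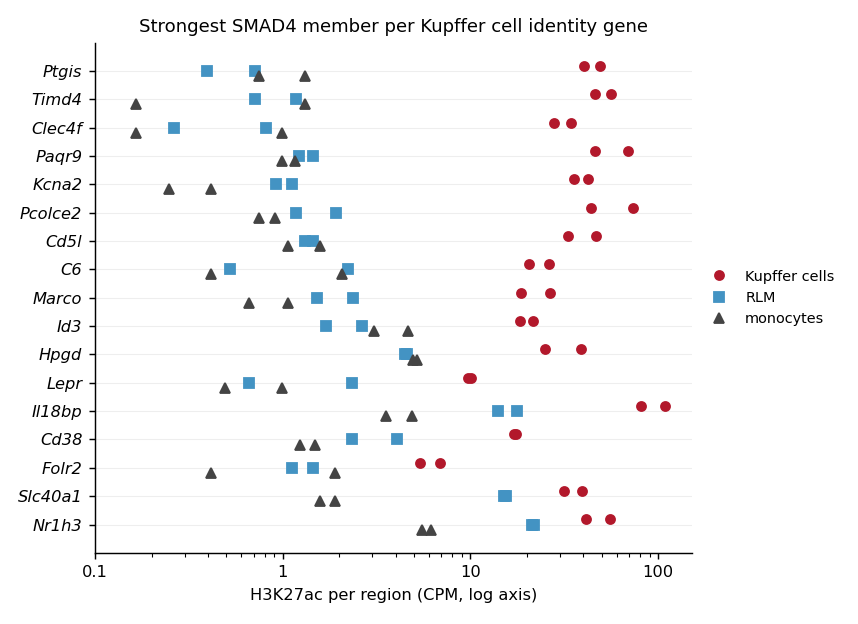
H3K27ac in CPM, on a log axis, of both libraries of Kupffer cells, RLM and monocytes at the tested member with the most SMAD4 tags of each Kupffer cell identity gene. At Clec4f, Kupffer cells held 28.0 and 34.2 CPM and the other 4 libraries stayed under 1 CPM.

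Among receptors and Smads, 11 of 16 annotated genes had 32 shared intervals, and 7 had 10 members. Of 9 tested, 4 were higher and 1 was lower in Kupffer cells than in monocytes, 5 were higher than in RLM and 1 was higher in RLM than in monocytes, with median log2 differences of 1.03, 1.23 and 0.0. Against monocytes 24.9% of all tested and 46.6% of all member regions were higher, and against RLM 22.3% and 43.3%, so the count against monocytes is near the share of members at large. Bmpr1a, a type I BMP receptor, had 28.0 and 21.7 CPM in Kupffer cells, 1.71 and 3.05 CPM in RLM and 0.413 and 0.0 CPM in monocytes at its printed promoter. Its log2 difference was 6.83 ± 0.49 against monocytes and 3.34 ± 0.36 against RLM (SE, edgeR, adjusted p = 1.08e-19 and 4.03e-12), and 1 monocyte library held no tag there. Acvrl1, the type I receptor ALK1, had 15.3 and 15.8 CPM in Kupffer cells, 4.20 and 3.86 CPM in RLM and 8.93 and 6.11 CPM in monocytes. Tgfbr2, the type II TGF-beta receptor, was the lower one, with 2.15 and 1.99 CPM in Kupffer cells, 4.20 and 2.44 CPM in RLM and 6.12 and 5.12 CPM in monocytes.

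Inhibitors of the pathway had 29 shared intervals at 10 of 13 annotated genes, and 5 members at 4. Skil was the strongest, and its region held 102 and 123 CPM in Kupffer cells, 97.4 and 81.0 CPM in RLM and 30.3 and 38.6 CPM in monocytes. Kupffer cells exceeded monocytes by 1.71 ± 0.20 on the log2 scale (SE, edgeR, adjusted p = 2.1e-11), whereas the difference from RLM of 0.34 ± 0.20 did not pass (adjusted p = 0.151). RLM exceeded monocytes by 1.37 ± 0.20 (SE, edgeR, adjusted p = 9.01e-08). Smad6, an inhibitory Smad, had a pair of members with no H3K27ac region.

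Known targets had 50 shared intervals at 16 of 19 annotated genes, and 11 members at 8. Skil, Smad6, Smad7, Id3 and Hpgd also stand in other lists. Of 8 members tested, 6 were higher in Kupffer cells than in monocytes and 5 were higher than in RLM. In RLM against monocytes 1 was higher and 1 was lower. The shares higher in Kupffer cells than in monocytes and than in RLM were 24.9% and 22.3% over all tested regions and 46.6% and 43.3% over all member regions. Hpgd, which degrades prostaglandins, had 24.9 and 38.8 CPM in Kupffer cells, 4.60 and 4.47 CPM in RLM and 4.96 and 5.20 CPM in monocytes at its printed promoter. With DLL4 the same gene's BMDM region held 10.9 and 9.80 CPM, against 4.08 and 4.13 CPM in untreated BMDM, a log2 difference of 1.33 ± 0.21 (SE, edgeR, adjusted p = 6.07e-06). Id4 had 125.1 and 58.8 SMAD4 tags per 10 M but only 0.715 and 0.352 CPM of H3K27ac in Kupffer cells, against 0.657 and 0.61 CPM in RLM and 1.07 and 0.991 CPM in monocytes.

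Notch genes had 16 shared intervals at 6 of 14 annotated genes. Members there numbered 16 at 5 genes, and 11 were higher and 1 was lower in Kupffer cells than in monocytes. Of all tested regions 24.9% were higher and 17.7% lower, and of all member regions 46.6% were higher and 7.54% lower. Hes1, the canonical Notch target repressor, had its strongest DLL4 response at chr16:30065088-30065266, with 15.5 and 16.2 CPM in DLL4-treated BMDM, against 0.292 and 0.543 CPM in untreated BMDM. The log2 difference of 5.17 ± 0.28 (SE, edgeR, adjusted p = 1.77e-16) was the largest among the members named by the rule. That interval held 29.9 and 48.3 CPM in Kupffer cells, 17.6 and 14.2 CPM in RLM and 3.06 and 5.45 CPM in monocytes. Il18bp, a decoy for interleukin 18, held 28.8 and 27.1 CPM with DLL4, against 12.7 and 14.5 CPM in untreated BMDM.

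LXR target genes had 47 shared intervals at 17 of 19 annotated genes, and 21 members at 13. Of 20 tested, 15 were higher in Kupffer cells than in monocytes and 14 were higher than in RLM, with none lower, where 24.9% and 22.3% of all tested regions and 46.6% and 43.3% of all member regions were higher. Apoc1, an apolipoprotein, had 52.9 and 77.4 CPM in Kupffer cells, 0.92 and 1.32 CPM in RLM and 2.48 and 0.826 CPM in monocytes. Mertk, a receptor for dying cells, had 21.1 and 22.1 CPM in Kupffer cells, 16.0 and 14.4 CPM in RLM and 0.909 and 0.495 CPM in monocytes at its start, so RLM stood beside Kupffer cells there.

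For 4 further lists, the shares to compare with are again 24.9% of all tested regions and 46.6% of all member regions, called higher against monocytes. The shares called lower were 17.7% and 7.54%. Shared intervals numbered 44 at general macrophage genes, 98 at transcription factor genes, 32 at iron and heme genes and 23 at monocyte genes. General macrophage genes had 16 members at 8 of 18 genes, with 10 of 14 tested higher in Kupffer cells than in monocytes and 0 lower. Genes of macrophage transcription factors had 18 members at 13 of 26 genes, with 10 higher and 2 lower of 17 tested. Iron and heme genes had 6 members at 5 of 17 annotated genes, with 4 of 5 tested higher. Monocyte genes had 9 members at 5 of 18 genes, and 3 of 9 tested were higher in Kupffer cells than in monocytes, 7 were higher than in RLM, and 3 were lower in RLM than in monocytes. Against RLM, 22.3% of all tested and 43.3% of all member regions were higher. In RLM, 9.14% of all tested and 6.33% of all member regions were lower than in monocytes.

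Not all members were more acetylated in Kupffer cells. Zfyve9, which encodes the SMAD anchor SARA, had 1.79 and 0.939 CPM in Kupffer cells, 3.55 and 3.56 CPM in RLM and 40.0 and 57.3 CPM in monocytes. Its log2 difference of -5.26 ± 0.33 against monocytes (SE, edgeR, adjusted p = 4.85e-23) was the most negative of the named members. Prmt6, an arginine methyltransferase, had 12.0 and 15.8 CPM in Kupffer cells, 60.4 and 54.6 CPM in RLM and 24.2 and 32.9 CPM in monocytes. Ptk2, focal adhesion kinase, went opposite ways in the 2 tables, which were scaled separately. It held 50.6 and 53.3 CPM in Kupffer cells, 1.97 and 2.23 CPM in RLM and 2.23 and 1.65 CPM in monocytes, and 2.84 and 3.04 CPM in DLL4-treated BMDM, against 8.84 and 11.3 CPM in untreated BMDM.

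Several loci held clusters of members, chosen here after their values were seen. Dnmt3a, a DNA methyltransferase gene, had 10 members over 174 kb, and 9 of 9 tested were higher in Kupffer cells than in monocytes, at log2 differences of 2.24 to 5.67. Samd4 had 8 members, with 7 of 7 tested higher. Bcor, a repressor of transcription, had 8 members over 160.0 kb. Of these, 4 were higher and 1 was lower in Kupffer cells than in monocytes, and 0 were higher than in RLM. Against monocytes 24.9% of all tested and 46.6% of all member regions were higher, so the Bcor count is near the share of members at large.

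LXR and RBPJ, the DNA-binding partner of Notch, are other factors profiled in Kupffer cells and BMDM. The BMDM of the LXR lists were cultured for 7 days with GW3965 for 18 h, whereas those of SMAD4 and RBPJ were untreated at 4 days. In Kupffer cells, LXR was profiled in cells, and SMAD4 and RBPJ in nuclei. LXR peaks of both Kupffer cell libraries overlapped 55.4% of members, 69.1% of shared intervals and 9.40% of BMDM-only intervals. LXR peaks of both BMDM libraries overlapped 19.2% of members, 53.5% of shared and 38.3% of BMDM-only intervals. RBPJ peaks of both Kupffer cell libraries overlapped 11.9% of members, 25% of shared and 1.43% of BMDM-only intervals. RBPJ peaks of both BMDM libraries overlapped 40.7% of members, 88.3% of shared and 88.6% of BMDM-only intervals. The lists differ in length, with 13394 and 11277 RBPJ peaks in Kupffer cells against 80480 and 78976 in BMDM. The approximate immunoprecipitation efficiency given with the RBPJ lists was 1.01% and 0.76% in Kupffer cells, against 25.10% and 24.49% in BMDM. An RBPJ site without a peak in Kupffer cells may thus have been missed. The part of these differences in the shares was not tested. The 2469 members with LXR and without RBPJ in Kupffer cells were higher than monocytes in H3K27ac at 56.5% of tested regions, and the 2235 with neither at 37.4%. The share was 43.6% for the 487 members with both factors and 25.5% for the 146 with RBPJ and without LXR. Over all tested regions 24.9% were higher, and over all member regions 46.6%. The group with RBPJ and without LXR was thus near the share of all tested regions. Median SMAD4 tag counts were 30.5 with LXR alone, 37.6 with both, 30.5 with RBPJ alone and 24.6 with neither. The differences between these groups, and the part of the SMAD4 tag count in them, were not tested.

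**Figure D5:**
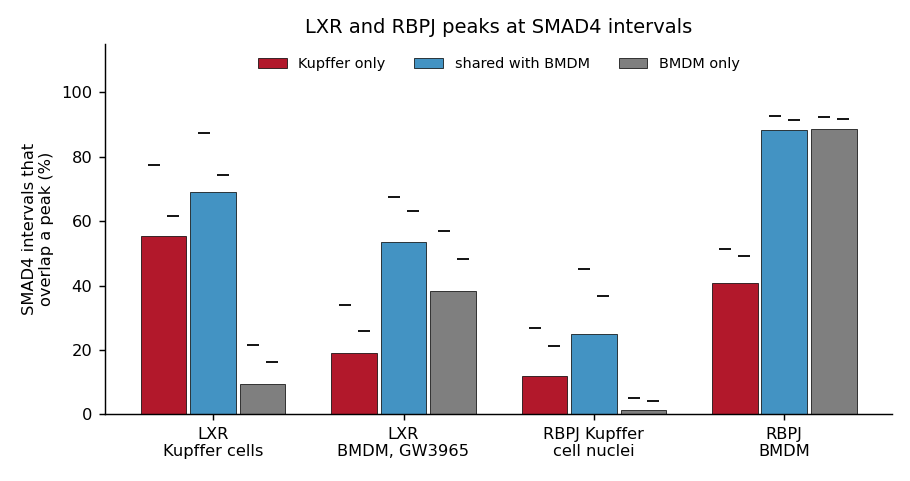
Percentage of member, shared and BMDM-only SMAD4 intervals that overlap a peak in both libraries of LXR or RBPJ in Kupffer cells or BMDM, with a short line for the share in each library alone. Members (Kupffer only) overlapped Kupffer cell LXR peaks at 55.4% and BMDM LXR peaks at 19.2%.

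Markers of the labelled cells stood as follows. The summed H3K27ac of the identity list was 4698 and 5779.6 CPM in Kupffer cells, 1042 and 1029 CPM in RLM and 509.9 and 481 CPM in monocytes. Within that list Arhgef37 went the other way, with 10.4 and 7.51 CPM in Kupffer cells, against 62.4 and 74.1 CPM in monocytes. Liver endothelium markers summed to 181 and 199 CPM in Kupffer cells, 109 and 102 CPM in RLM and 92.2 and 81.5 CPM in monocytes, over 9 of 12 genes with a tested region. Pecam1 (79.3 and 99.8 CPM) and Stab2 (64.4 and 64.4 CPM) made up most of the Kupffer cell sum. Cldn5 had 12.9 and 11.4 CPM in Kupffer cells, against 1.74 and 1.32 CPM in monocytes. Gpr182 had 9.78 and 10.4 CPM in Kupffer cells, against 0.496 and 0.495 CPM in monocytes. Cdh5 was also higher in both Kupffer cell libraries than in both monocyte libraries. Kdr went the other way, with 7.03 and 6.98 CPM in Kupffer cells, 15.9 and 17.8 CPM in RLM and 21.6 and 20.9 CPM in monocytes, and Emcn, Lyve1 and Tek were also lower in both Kupffer cell libraries than in both monocyte libraries. Hepatocyte markers had a tested region at 5 of 10 genes and summed to 107 and 108 CPM in Kupffer cells, 46.0 and 39.4 CPM in RLM and 51.7 and 47.1 CPM in monocytes. Ttr had 29.8 and 35.5 CPM in Kupffer cells, 7.09 and 5.38 CPM in RLM and 2.89 and 1.65 CPM in monocytes. Apoa2 had 16.9 and 17.9 CPM in Kupffer cells, 6.83 and 4.88 CPM in RLM and 4.63 and 3.22 CPM in monocytes. Alb had 5.25 and 4.52 CPM in Kupffer cells, 3.81 and 6.91 CPM in RLM and 3.47 and 4.05 CPM in monocytes, and Apoa1 had 4.53 and 5.04 CPM in Kupffer cells, 6.04 and 6.30 CPM in RLM and 8.18 and 10.3 CPM in monocytes. Hepatocyte markers thus did not move as a block. Stellate cell markers, at 3 of 8 genes, summed to 121 and 169 CPM in Kupffer cells, 82.0 and 65.8 CPM in RLM and 65.1 and 95.5 CPM in monocytes. Hgf made up most of the Kupffer cell sum, at 104 and 152 CPM. Pdgfrb had 17.4 and 16.6 CPM in Kupffer cells, against 14.2 and 25.1 CPM in monocytes, and Col1a1 was under 1 CPM in both. Neutrophil and lymphocyte markers, at 5 of 10 genes, summed to 49.4 and 51.5 CPM in Kupffer cells, 36.0 and 36.4 CPM in RLM and 44.8 and 44.9 CPM in monocytes. The sum of monocyte markers was lower in Kupffer cells, at 1378 and 1543 CPM, and in RLM, at 1186 and 1226 CPM, than in monocytes, at 1879.8 and 1854 CPM. Single genes differed. F10 fell from 119 and 112 CPM in monocytes to 0.954 and 0.528 CPM in Kupffer cells. Plac8 had 322 and 324 CPM in Kupffer cells, against 129.8 and 117 CPM in monocytes, and Ccr2 was also higher in Kupffer cells. Ly6c2 had 355 and 338 CPM in RLM, against 229 and 212 CPM in monocytes. Hepatocyte genes had 2 members and endothelial genes 5, while stellate and neutrophil or lymphocyte genes had 0. All 5 endothelial members were higher in Kupffer cells than in monocytes and 3 were higher than in RLM, with none lower. Of the 2 hepatocyte members, 1 was higher in Kupffer cells than in monocytes and 2 were higher than in RLM, with none lower. The shares higher were 24.9% and 22.3% over all tested regions and 46.6% and 43.3% over all member regions. The part of other liver cells in the results was not tested. Tags in regions were 8.22 and 19.5 M for Kupffer cells, 7.37 and 9.47 M for RLM, 11.6 and 12.3 M for monocytes and 20.2 to 27.2 M for BMDM.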

How the data were processed

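SMAD4, LXR, RBPJ and H3K27ac were profiled by chromatin immunoprecipitation sequencing in mouse cells. Of 34 libraries, 22 had values and 12 were inputs, used here only through the fold over input. Bowtie2, HOMER and build mm10 are named in the submitters' processing notes. Per the file headers, the authors called peaks with HOMER findPeaks in each library against 1 input, at a false discovery rate of 0.001, 4-fold over input and 4-fold over the surrounding 10000 bp. The deposited signal is the normalized tag count per 10 M tags, the deposited score is HOMER's findPeaks score, and the deposited ratio is the fold over input. Per the file headers, the input of the second Kupffer cell SMAD4 library also served the first Kupffer cell RBPJ library, and the input of the second Kupffer cell LXR library is named for a NASH diet. H3K27ac values are raw tag counts per region, deposited by the authors in 2 tables.

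From these, intervals were intersected in Python 3.11.15, and each table was fitted on its own with edgeR 4.0.16 in R 4.3.3 (TMM scaling, filterByExpr, robust quasi-likelihood F test, Benjamini-Hochberg adjustment over all tested regions). SE was the log2 difference divided by the square root of F. Library 1 and library 2 of a group were not paired: same-numbered libraries' deviations correlated at -0.018 to 0.038. Where several regions overlapped an interval, the one with the nearest centre was used. Genes are the nearest in the deposited annotation within 100 kb. For 380 members without such an annotation they are the nearest start in the RefSeq promoter table, which does not list every gene. That table held no start on chromosome 18, so the 204 members there were not compared with a promoter window. The fit was tested on simulated counts. Alternatives were DESeq2 1.42.0, other scalings, no filter, a replicate block, other overlaps and leaving out each library.

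Members and gene lists were chosen with earlier results of these data known. Named members were the 10 with the most SMAD4 tags, the 10 (5 for DLL4) with the largest called change in each direction among those with separated libraries and a level above the median of called members, those near identity or SMAD pathway genes, and those at each threshold. Members of predicted genes and of contigs were left out of that rule.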

Additional observations from a re-analysis of the deposited data

How the results depend on the processing

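Of 117 values under another setting, 101 stayed within 1.5 times the reported count and 16 did not. Leaving out 1 SMAD4 library at a time gave 6995 to 16617 members. Leaving out 1 H3K27ac library at a time gave 127 to 206 regions lower in Kupffer cells than in RLM, and 26 to 43 lower with DLL4. With no 2-fold minimum, 720 member regions were lower in Kupffer cells than in monocytes, 471 lower than in RLM and 528 lower in RLM than in monocytes, while 723 were higher and 204 lower with DLL4. With every region that overlaps an interval, 637 were lower in Kupffer cells than in monocytes, 3221 higher and 375 lower than in RLM, and 1063 higher and 563 lower in RLM than in monocytes. Members with no BMDM peak within 1000 bp, an alternative chosen after seeing the data, gave 184 lower in RLM than in monocytes. These settings change the number of regions or libraries used or drop the fold minimum. With a replicate block, the counts were 2302 higher and 366 lower for Kupffer cells against monocytes, 2132 and 191 against RLM, 627 and 310 for RLM against monocytes, and 377 and 50 for DLL4. The labels give no pairing behind these numbers. Scaling by total tags moved the median of all regions by -0.114 for Kupffer cells against monocytes and -0.146 against RLM, and no count by over 1.5 times. Library size limits regions near 1 CPM, where counts are few.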
